A study of Mus musculus with 19 samples.

Results

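A set of 10 immediate early genes was examined: Fos, Fosb, Jun, Junb, Egr1, Nr4a1, Npas4, Arc, Ier2 and Btg2. They were measured in single cells of the mouse lateral hypothalamic area (LHA). The members were chosen by gene symbol, and each matched 1 of the 52636 gene identifiers in the table. The study picked single cell bodies by hand from the dissected LHA of 7 male mice, 6 to 8 weeks old, that carried an Agrp-IRES-Cre driver and the Ai9 tdTomato reporter. In these mice the red axons of AGRP neurons, whose somata lie outside the LHA, marked the borders of the dissection, and only non-fluorescent cells were taken after the tissue had been digested with protease. There was 1 group, with no stimulus, treatment or second genotype, so the comparisons below are between classes of cells and between the 19 plates on which the cells were processed. The labels tie no plate to a mouse. Some plates may share a mouse, and p-values over plates may then be too small.

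Immediate early genes are switched on within minutes of a stimulus, because the factors that read it, such as CREB and SRF, are already present and need only be activated by calcium, cAMP or MAP kinase signals. Many of their products are transcription factors that in turn act on a later wave of genes for secreted and synaptic proteins. In the LHA, Fos has long been used as a mark of recent activity of the neurons that make hypocretin (orexin, gene Hcrt), which promote wakefulness, and of those that make melanin-concentrating hormone (gene Pmch). Enzymatic dissociation of tissue is also known to induce this gene set in many cell types.

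Wells of LHA cells with at least 1000 detected genes were kept, 1534 of 1612, and they fell into 4 classes. A well was put in the Hcrt class (1065 wells, 69.4%) or the Pmch class (68 wells) when that transcript made up at least 1% of its mouse gene counts. Wells below both peptide limits were divided by Gad1 and Gad2, the enzymes of GABA synthesis. Those where the 2 together reached 5 unique molecular identifiers (UMIs, counts of captured RNA molecules) formed a GABA class (327 wells). Those with fewer than 5 formed a class called no Gad for short (71 wells). The 3 wells past both peptide limits were left out. Median depth was 45722 UMIs per well in the Hcrt class, 59063 in the Pmch class, 24486 in the GABA class and 24969 in the class with no Gad. The vesicular glutamate transporter Slc17a6 stood at 130 CPM (counts per 1000000 counts) in the pooled Hcrt class, 53.0 in the Pmch class, 22.7 in the GABA class and 218 in the class with no Gad. That last class was not free of Gad or peptide counts, with Gad1 at 5.26, Gad2 at 14.7 and Hcrt at 2433 CPM. Of the kept wells, 1504 passed a gate for neurons: 5 or more of 8 pan-neuronal genes had to be present, and together they had to outnumber the UMIs of any list of markers for glia or vessels. Of the 30 that did not, 19 were in the Hcrt class, 16 of them led by oligodendrocyte markers, 2 were in the GABA class and 9 were in the class with no Gad. For 8 of those 9 the expression profile was nearer to that of the wells labelled qRNA, whose contents the labels do not give, than to that of the neurons, a comparison chosen after the data were seen. These 8 wells held 250671 UMIs, with Ier2 at 834 CPM and Junb at 379 CPM, so values for the class with no Gad are given with and without the wells outside the gate. Of the 64 wells labelled ERCC and the 40 labelled empty, 5.77% had a Fos UMI.

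The promoters of the set are shown because the members differ in the element that CREB binds, the cAMP response element TGACGTCA, whose core is CGTCA and reads as TGACG on the other strand. Windows from RefSeq sequences of GRCm38.p6 were searched for 7 of the 10 members. Egr1, Arc and Ier2 were not searched, so the motif counts below do not speak to them. Below are the 250 bases before the start of 4 genes, each 5′ to 3′ on the strand of the gene, with the core on either strand, or the whole element, in capitals. The windows are chr12:85473640-85473889 (plus strand) for Fos, chr4:95052223-95052472 (minus) for Jun, chr8:84978749-84978998 (minus) for Junb and chr1:134079156-134079405 (minus) for Btg2.
Fos: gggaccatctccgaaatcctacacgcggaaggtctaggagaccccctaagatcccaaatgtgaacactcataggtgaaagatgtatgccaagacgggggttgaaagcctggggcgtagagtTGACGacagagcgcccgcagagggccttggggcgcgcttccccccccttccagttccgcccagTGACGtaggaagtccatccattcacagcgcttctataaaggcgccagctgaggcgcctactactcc
Jun: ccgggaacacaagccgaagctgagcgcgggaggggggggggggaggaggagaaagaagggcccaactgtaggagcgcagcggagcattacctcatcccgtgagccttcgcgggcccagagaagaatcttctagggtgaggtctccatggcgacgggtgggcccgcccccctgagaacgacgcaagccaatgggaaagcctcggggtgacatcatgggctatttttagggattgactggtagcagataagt
Junb: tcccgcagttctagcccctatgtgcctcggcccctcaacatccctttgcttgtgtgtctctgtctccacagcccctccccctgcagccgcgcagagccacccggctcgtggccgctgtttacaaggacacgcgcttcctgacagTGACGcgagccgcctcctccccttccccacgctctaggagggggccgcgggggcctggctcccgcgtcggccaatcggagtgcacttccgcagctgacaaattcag
Btg2: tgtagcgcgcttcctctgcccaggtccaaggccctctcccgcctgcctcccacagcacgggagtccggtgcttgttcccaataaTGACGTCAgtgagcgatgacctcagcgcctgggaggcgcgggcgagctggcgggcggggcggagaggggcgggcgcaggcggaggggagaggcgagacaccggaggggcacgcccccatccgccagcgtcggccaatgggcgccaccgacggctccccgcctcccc
The core CGTCA, searched on both strands, was present in 6 of the 7 windows, against 17.8% of 32851 RefSeq promoter windows of the same length, and Jun was the member without it. Fos held the core at 2 places, 129 to 125 and 66 to 62 bases before its start. The whole element TGACGTCA was found in Btg2, and it is present in 1.55% of all windows. GCGNGGGCG, the motif of EGR proteins, was found in 3 of the 7 windows (4.70% of all), while TGANTCA, the AP-1 motif (6.75% of all), and the CArG box read by SRF (1.47% of all) were found in none. These matches describe the letters in the windows only. Motifs searched can overlap one another, as the core lies within the whole element.

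Fos (chromosome 12, 85473890 to 85477273, plus strand, GRCm38), the partner that gives the AP-1 dimer with JUN proteins its stability, was higher in the Hcrt class than in each of the 3 others. For this comparison, counts of each class were summed within each plate that held at least 3 of its wells, and edgeR's quasi-likelihood test compared the classes over plates, with the plate as a block and adjusted p-values over all genes tested. Values per plate are given in CPM of all mouse gene counts. Fold changes are on the scale after TMM scaling: the median gene differed between Hcrt and GABA by 0.015 (log2) on it, and by -0.38 when scaled by totals alone. In the Hcrt class Fos ranged over the 19 plates from 301 to 562 CPM around a median of 407, with a mean of 418 ± 95.1 (SD, n = 19). In the GABA class it ranged from 28.0 to 168 CPM with a median of 76.1 (86.3 ± 46.3, SD, n = 16), and in the Pmch class from 30.0 to 218 CPM with a median of 92.0 (106.2 ± 49.3, SD, n = 13). Every Hcrt plate lay above every GABA plate and every Pmch plate, whereas the latter 2 classes overlapped. The Hcrt class exceeded the GABA class by a log2 difference of 2.94 ± 0.24 (SE; adjusted p = 4.64e-13), in 16 of 16 plates that held both, and the Pmch class by 2.09 ± 0.26 (SE; adjusted p = 1.57e-08), in 13 of 13. In the class with no Gad, Fos ranged from 0 to 525 CPM with a median of 196 (200 ± 149, SD, n = 10), a range above which only 5 of the 19 Hcrt plates lay. Fos was still higher in the Hcrt class, by 1.66 ± 0.30 (SE; adjusted p = 4.99e-05) in 9 of 10 plates, and by 1.74 ± 0.32 (SE; adjusted p = 7.94e-05) with neurons only. Below the Hcrt class, Fos was lower in the GABA class than in the class with no Gad, at a log2 difference of -1.28 ± 0.31 (SE; adjusted p = 0.00831). The plate values of these 2 classes overlapped. That call was lost in 3 of 12 alternative fits, those without 1 plate not counted (adjusted p up to 0.319). The order of the Pmch and GABA classes depended on the scaling: their log2 difference was 0.84 ± 0.28 (SE; adjusted p = 0.0205), but 0.44 with an adjusted p of 0.206 when scaled by totals, and it was also lost without plate Q5_112 or Q7_110.

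**Figure D1:**
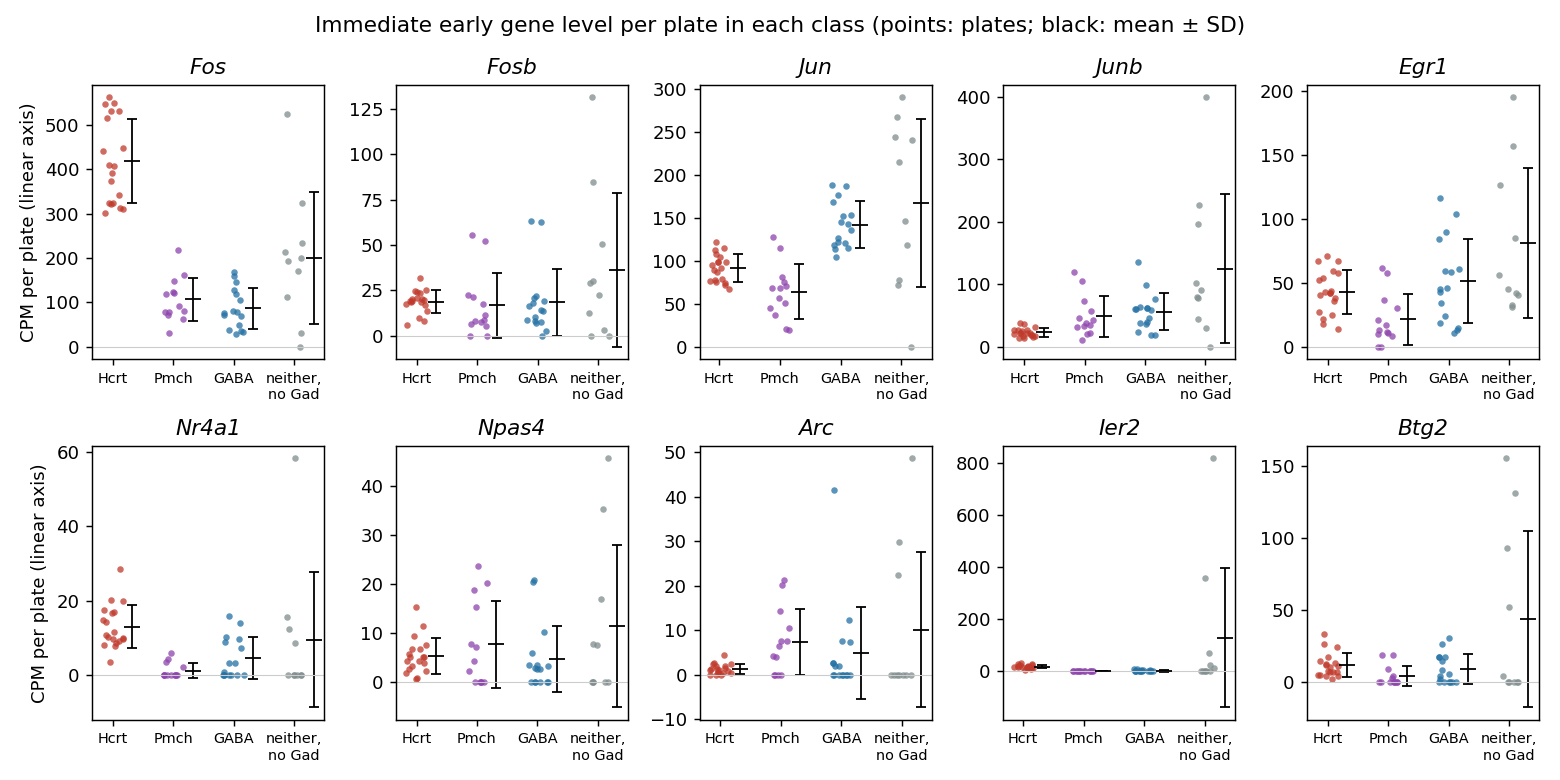
Level of each of the 10 members (CPM of summed counts, 1 point per plate) in the Hcrt, Pmch, GABA and no-Gad classes, with the mean and SD over plates beside the points. Fos in the 19 Hcrt plates lies between 301 and 562 CPM, above all GABA and Pmch plates, whereas Junb is lowest in the Hcrt class.

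Jun and Junb, partners of Fos in AP-1, were not called higher in the Hcrt than in the GABA class. Jun (chromosome 4, 95049034 to 95052222, minus strand), whose product binds DNA alone or with FOS, was at 66.8 to 122 CPM in the Hcrt class with a median of 91.4 (91.5 ± 16.1, SD, n = 19). In the GABA class it was at 103.8 to 188 CPM (142 ± 27.0, SD, n = 16), and most GABA plates lay above most Hcrt plates. Whether that difference passes depended on the scaling: the log2 difference of Hcrt from GABA was -0.26 ± 0.17 (SE; adjusted p = 0.246, lower in 14 of 16 plates), -0.66 with an adjusted p of 0.00078 when scaled by totals, and -0.41 with an adjusted p of 0.0264 in DESeq2. Jun was lowest in the Pmch class, at 63.9 ± 32.2 CPM (SD, n = 13). It was lower there than in the GABA class, at a log2 difference of -0.79 ± 0.21 (SE; adjusted p = 0.00222) in 11 of 12 plates, and than in the class with no Gad, at -1.04 ± 0.25 (SE; adjusted p = 0.00134). The difference between Hcrt and Pmch was smaller, 0.53 ± 0.20 (SE; adjusted p = 0.0386), and its call was lost without plate Q5_100, Q5_108, Q6_101, Q6_109, Q8_107 or Q8_111 (adjusted p up to 0.0915).

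Junb (chromosome 8, 84974484 to 84978718, minus strand), a JUN protein that can restrain the activity of JUN, was lower in the Hcrt class than in all 3 others. Its level in the Hcrt class was 13.9 to 37.8 CPM (22.7 ± 6.88, SD, n = 19), against 17.8 to 135 CPM in the GABA class (56.1 ± 30.1, SD, n = 16) and 11.2 to 119 CPM in the Pmch class (48.5 ± 32.5, SD, n = 13). The ranges overlapped. The log2 difference of Hcrt from GABA was -0.89 ± 0.26 (SE; adjusted p = 0.0061), lower in 14 of 16 plates, and from Pmch -0.95 ± 0.29 (SE; adjusted p = 0.00913), lower in 9 of 13. The class with no Gad had the highest mean, 124 ± 119 CPM (SD, n = 10), or 81.4 ± 63.8 (SD, n = 9) with neurons only. Hcrt differed from it by -2.02 ± 0.33 (SE; adjusted p = 2.18e-06), and by -1.43 ± 0.33 (SE; adjusted p = 0.000508) with neurons only. The log2 difference of GABA from the class with no Gad was -1.13 ± 0.33 (SE; adjusted p = 0.0271) and that of Pmch -1.07 ± 0.36 (SE; adjusted p = 0.0281). With neurons only neither passed, at -0.55 (adjusted p = 0.415) and -0.48 (adjusted p = 0.365). The first was also lost without plate Q7_110, Q7_114 or Q8_115, and the second without Q5_112, Q7_114, Q8_111 or Q8_115. Junb overlaps Prdx2, a peroxiredoxin gene on the opposite strand with 39699 UMIs against 2195 for Junb, and the strand setting of the counting is not given in the sources used here, so its level is uncertain. Prdx2 itself was at 576 ± 61.8 CPM (SD, n = 19) in the Hcrt class and 583 ± 128 CPM (SD, n = 16) in the GABA class. Fosb (chromosome 7, 19302696 to 19310051, minus strand), the relative of Fos whose truncated form accumulates with repeated stimulation, showed no call in any of the 6 class comparisons. It was at 18.8 ± 6.23 CPM in the Hcrt class (SD, n = 19), 18.3 ± 18.5 in the GABA class (SD, n = 16), 16.6 ± 17.9 in the Pmch class (SD, n = 13) and 36.3 ± 42.4 in the class with no Gad (SD, n = 10). The difference between Hcrt and GABA was 0.83 ± 0.35 (log2, SE; adjusted p = 0.0656).

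Egr1 (chromosome 18, 34859823 to 34864984, plus strand), a zinc finger factor induced by synaptic activity, was lowest in the Pmch class. It reached 21.3 ± 19.9 CPM there (SD, n = 13), against 42.8 ± 16.97 in the Hcrt class (SD, n = 19), 51.2 ± 33.0 in the GABA class (SD, n = 16) and 80.8 ± 58.4 in the class with no Gad (SD, n = 10). The Hcrt class lay above the Pmch class by 1.48 ± 0.30 (log2, SE; adjusted p = 7.96e-05) in 11 of 13 plates. The log2 difference of Pmch from GABA was -1.04 ± 0.32 (SE; adjusted p = 0.00935) and from the class with no Gad -1.79 ± 0.38 (SE; adjusted p = 0.000193). Hcrt and GABA differed by 0.44 ± 0.24 (SE; adjusted p = 0.176), a difference that did not pass. Nr4a1 (chromosome 15, 101254269 to 101274795, plus strand), an orphan nuclear receptor, was too low in the other classes for the filter on low counts. It was at 3.57 to 28.5 CPM in the Hcrt class (13.03 ± 5.82, SD, n = 19), 4.59 ± 5.55 in the GABA class (SD, n = 16), 1.21 ± 2.04 in the Pmch class (SD, n = 13) and 9.50 ± 18.2 in the class with no Gad (SD, n = 10). Without the filter it was higher in the Hcrt than in the GABA class by 2.32 ± 0.45 (log2, SE; adjusted p = 1.04e-05), in 15 of 16 plates, and than in the Pmch class by 3.58 ± 0.63 (SE; adjusted p = 6.34e-07), in 13 of 13, where the Pmch class held 6 UMIs in all. The call against Pmch was lost in 1 of the 2 alternative fits that tested Nr4a1, those without 1 plate not counted (adjusted p = 0.0591). Npas4 (chromosome 19, 4984355 to 4990316, minus strand), a factor made almost only in neurons in response to calcium entry, was near its detection limit everywhere. It stood at 5.34 ± 3.67 CPM in the Hcrt class (SD, n = 19), 4.70 ± 6.75 in the GABA class (SD, n = 16), 7.63 ± 8.79 in the Pmch class (SD, n = 13) and 11.3 ± 16.5 in the class with no Gad (SD, n = 10), and no comparison called it with or without the filter.

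Arc (chromosome 15, 74669083 to 74672570, minus strand), which encodes a postsynaptic protein that drives removal of AMPA receptors, was the least detected member, with 174 UMIs in all kept wells. It was at 0 to 4.37 CPM in the Hcrt class (1.26 ± 1.12, SD, n = 19), 4.84 ± 10.4 in the GABA class (SD, n = 16), 7.36 ± 7.38 in the Pmch class (SD, n = 13) and 10.1 ± 17.4 in the class with no Gad (SD, n = 10). Without the filter, Arc was lower in the Hcrt class than in the Pmch class, at a log2 difference of -1.85 ± 0.60 (SE; adjusted p = 0.0286), lower in 9 of 13 plates. Against the class with no Gad the fitted difference was -2.40 ± 0.80 (SE; adjusted p = 0.0465), but it rests on 10 UMIs in that class, whose median plate was at 0 CPM and highest at 48.7, and the Hcrt class was the higher one in 6 of 10 plates and the lower one in 3. Ier2 (chromosome 8, 84661331 to 84662852, minus strand), a small nuclear protein of the rapid response, was at 5.11 to 30.2 CPM in the Hcrt class (17.9 ± 6.50, SD, n = 19) and at 0 to 9.60 CPM in the GABA class (2.35 ± 3.29, SD, n = 16). The difference was 3.16 ± 0.69 (log2, SE; adjusted p = 0.000517), higher in 15 of 16 plates. With neurons only Ier2 fell below the filter, which it had passed through the class with no Gad. No Ier2 UMI was counted in the Pmch class, 0 of 68 wells at a median of 59063 UMIs, which allows a share of up to 4.41% of wells with a UMI. Against a floor of 3 counts over the 13 summed plates (0.738 CPM), Ier2 was at least 24.4-fold higher in the Hcrt class. The class with no Gad stood at 128 ± 266 CPM (SD, n = 10), but at 11.7 ± 23.2 CPM (SD, n = 9) with neurons only. Btg2 (chromosome 1, 134075170 to 134079120, minus strand), an antiproliferative co-regulator of transcription, was at 11.7 ± 8.47 CPM in the Hcrt class (SD, n = 19), 8.94 ± 10.3 in the GABA class (SD, n = 16), 4.06 ± 7.01 in the Pmch class (SD, n = 13) and 43.6 ± 61.3 in the class with no Gad (SD, n = 10). Without the filter it was higher in Hcrt than in Pmch neurons by 2.097 ± 0.54 (log2, SE; adjusted p = 0.00232), a call lost with at least 5 wells per plate (adjusted p = 0.0881). Against the GABA class the difference was 1.23 ± 0.41 (SE; adjusted p = 0.0346), with pooled levels of 11.6 and 10.8 CPM. In the 5 fits without 1 plate in which Btg2 passed the filter, that call was lost without plate Q5_104, Q5_108, Q5_116 or Q7_102 (adjusted p up to 0.165) and kept without Q6_109 (0.0435).

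Over the set, 6 of the 10 members passed the filter in the fit of 4 classes. One of the 6, Ier2, passed it through the class with no Gad (236 UMIs, 27 with neurons only) and is counted as called below in each comparison but those of Hcrt with no Gad and of Pmch with GABA. Between Hcrt and GABA, 2 of these 6 were called higher and 1 lower, where 30.3% of the 8094 genes tested were called at an adjusted p under 0.05, 16.5% higher and 13.8% lower. Between Hcrt and Pmch, 4 were called higher and 1 lower, against 26.4% of genes called, 14.5% higher and 11.8% lower. Between Hcrt and the class with no Gad, 1 was called higher and 1 lower, against 18.8% of genes called, 12.9% higher and 5.88% lower, and the same 1 and 1 were called with neurons only, where 21.5% of genes were called. Between GABA and the class with no Gad, 0 were called higher and 3 lower, against 5.94% of genes called, 4.02% higher and 1.93% lower. With neurons only that count was 1, Fos, of 5 tested, where 4.4% of genes were called. Between Pmch and GABA, 1 was called higher and 2 lower, against 30.3% of genes called, 14% higher and 16.3% lower. Between Pmch and the class with no Gad, 0 were called higher and 4 lower, against 19.3% of genes called, 11.7% higher and 7.57% lower, and 2 were called with neurons only, where 21.7% of genes were. The comparisons share their classes, so the calls are not independent of one another. Without the filter, 5 members were called between Hcrt and GABA, where 8.6% of 38533 genes were, 8 between Hcrt and Pmch, where 7.74% were, and 3 between Hcrt and the class with no Gad, where 6.18% were. Those 38533 genes include every gene with at least 1 count, most of them too low for the filter. Their shares called are low for that reason and are no measure of enrichment of the set.

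**Figure D2:**
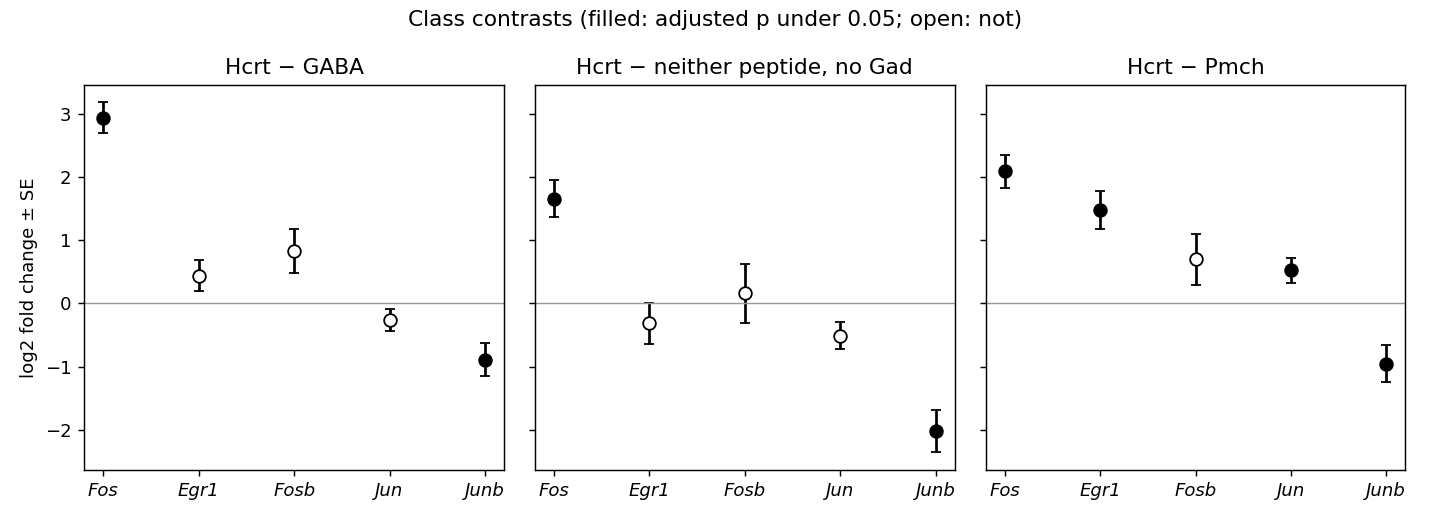
Log2 difference (TMM-scaled, ± SE) of Fos, Fosb, Jun, Junb and Egr1 in the Hcrt class against the GABA, Pmch and no-Gad classes, with filled points for adjusted p under 0.05. Fos lies above the line of no difference in all 3 comparisons, at 2.94, 2.09 and 1.66, and Junb below it, at -0.89, -0.95 and -2.02.

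Sums over a plate do not show whether more wells or more molecules per well carry a difference, so each well was thinned to 18000 UMIs and wells with a UMI were counted. This left out 62 Hcrt, 1 Pmch, 74 GABA and 15 no-Gad wells that were shallower. Fos was present in 90.7% of 1003 Hcrt wells (exact 95% interval 88.8 to 92.5%, counting error only), 46.3% of 67 Pmch wells, 30.8% of 253 GABA wells (25.2 to 36.9%) and 48.2% of 56 no-Gad wells. Without thinning it was present in 92.7% of Hcrt wells and 31.8% of GABA wells. Jun, in contrast, was present in 57.1% of Hcrt and 57.3% of GABA wells at equal depth. Junb was present in 24.0% of Hcrt, 37.9% of GABA and 38.8% of Pmch wells. Egr1 was present in 36.8% of Hcrt wells, Fosb in 19.3%, Ier2 in 15.5%, Nr4a1 in 14.8%, Btg2 in 12.2%, Npas4 in 6.58% and Arc in 1.40%. Arc was present in 7.46% of the thinned Pmch wells. At this depth a single Hcrt neuron most often held UMIs of 2 or 3 of the 10 members (273 and 275 wells), while 28 wells held none and 5 wells held 7 or 8.

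The other genes of the response were read from lists of known members chosen with earlier results of these data in view. Of 30 other rapid immediate early genes, 8 could be tested between Hcrt and GABA. Of these, 5 were higher and 1 was lower, where 30.3% of all genes were called, with a median log2 difference of 0.89 against 0.015 over all genes. A gene could pass the filter on low counts through 1 class alone, such as Hcrt. Csrnp1 was at 21.6 CPM in the Hcrt and 4.41 in the GABA class, and Nptx2 of the delayed list at 285 and 4.74. Counts of higher genes and medians of this list and those below may therefore lean to the Hcrt class. The higher genes included Csrnp1 at 2.96, Klf6 at 1.30 and Dusp1, a phosphatase that switches off MAP kinases, at 1.07, and the lower one was Gadd45b at -2.86. For Dusp1 the mean CPM hardly differed, 38.3 ± 10.9 in the Hcrt and 37.3 ± 59.1 in the GABA class (SD). On the TMM scale it was higher in 14 of 16 plates and lower in 2. Against Pmch, where 26.4% of all genes were called, 3 were higher, among them Csrnp1 at 3.71 and Fosl2 at 3.07, and 2 were lower, Gadd45g at -1.16 and Klf6 at -0.61. Of 18 delayed activity-regulated genes, 13 could be tested, and against GABA 7 were higher and 2 lower (median 1.18), against Pmch 10 higher and 1 lower (median 2.75). The neuronal pentraxin Nptx2 was higher than in GABA neurons by 6.58 and than in Pmch neurons by 5.62, the secretogranin Scg2 by 3.85 and 4.99, and the prohormone convertase Pcsk1 by 3.45 and 5.68. All 3 are also known to serve the steady peptide and synaptic output of neurons. The same 30.3% and 26.4% of all genes called stand beside the delayed genes and the lists below. Among 26 upstream regulators, 18 were tested. Against GABA 1 was higher and 6 were lower (median -0.31), including the CREB coactivator Crtc1 at -2.04 and the calcineurin subunit Ppp3ca at -1.44. Against Pmch 1 was higher, Camk2a at 1.83, and 4 were lower, including Camk4 at -2.33 and Ppp3ca at -0.97.

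A list of 20 heat shock and stress genes that cell dissociation is known to induce stands beside these results. Its summed level was 9181 to 12712 CPM over the Hcrt plates (median 11032), with medians of 10901 CPM over the GABA plates, 10254 over the Pmch plates and 10801 over the no-Gad plates. Of its 15 tested genes, 6 were higher and 2 lower in Hcrt than in GABA neurons (median 0.26), with Hspa8 at 0.59 and Mt2 at -2.09, and 7 were higher and 0 lower than in Pmch neurons (median 0.44). Against the class with no Gad 9 were higher and 0 lower, where 18.8% of all genes were called. The labels tie no plate to a digestion, and the part of dissociation in the levels of Fos and its relatives was not tested.

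Among the 19 plates of Hcrt neurons the members moved by different amounts. Their summed level ranged from 490 to 821 CPM (median 640). Fos differed by 1.87-fold between the lowest plate, Q8_107, at 301 CPM, and the highest, Q7_110, at 562 CPM. Its coefficient of variation (CV, the SD over the mean) was 22.8%. Counting error alone gives 3.04%, a value that leaves out the variation from well to well within a plate. Jun differed by 1.83-fold. Egr1 ranged over 5.17-fold, from 13.7 CPM on plate Q6_105 to 70.7 on plate Q5_100, and Nr4a1 over 7.98-fold, from 3.57 on Q6_105 to 28.5 on Q8_115. Btg2 ranged over 15.5-fold, from 2.14 CPM on Q6_109 (4 UMIs) to 33.2 on Q6_113, with a CV of 72.3% against 18.1% from counting alone. These 5 genes had their highest levels on different plates. Over the whole set, Jun and Fosb shared their highest plate, Q6_117, and the other members each peaked on a different plate. Lowest plates were shared by Fos and Jun (Q8_107), Egr1 and Nr4a1 (Q6_105), and Npas4 and Btg2 (Q6_109), whereas Fosb, Junb and Ier2 each had another.

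**Figure D3:**
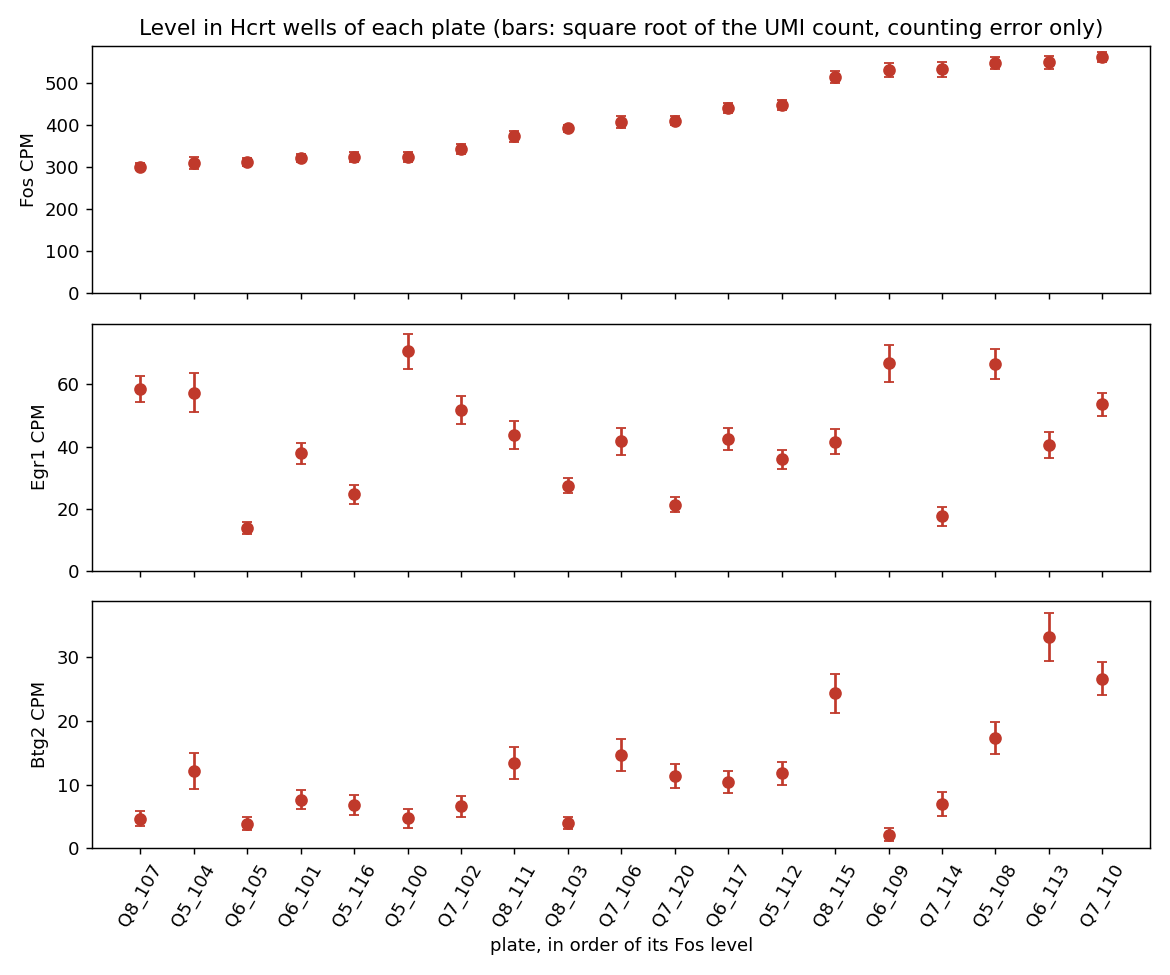
Level of Fos, Egr1 and Btg2 (CPM of summed counts, linear axis) in the Hcrt class of each of the 19 plates, ordered by Fos, with bars for counting error. Fos spans 301 to 562 CPM, Egr1 13.7 to 70.7 and Btg2 2.14 to 33.2, and the order of the plates by Fos is not their order by the other 2 genes.

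Over the 1003 thinned Hcrt wells of all plates together, Fos varied strongly from neuron to neuron. Its median was 6 UMIs per thinned Hcrt well, with 1 at the 10th percentile, 16 at the 90th and 66 in the highest well. The Fano factor (variance over mean, which is 1 for pure counting error) was 7.02, and the tenth of wells richest in Fos held 32.3% of its UMIs. Of the variance of Fos on the scale of log2(1 + thinned UMIs), 2.92% lay between plates. Pearson correlations were then computed over the 1003 wells between pairs of members, on log2(1 + thinned UMIs) centred within each plate. They are descriptions, since wells of 1 plate share a library. Of the 45 pairs, 36 were above 0, with a median of 0.054. Fos and Egr1 were the pair most alike at 0.275, positive in 19 of 19 plates, followed by Fos with Nr4a1 at 0.216 (18 of 19 plates), Fos with Jun at 0.188 (19 of 19) and Fos with Junb at 0.181 (17 of 19). Jun and Junb, both possible partners of Fos, were at 0.065 with each other. Arc and Npas4, present in few wells, had little range in which to show a relation. All of these correlations are weak, and in counts this sparse they stand as descriptions only.

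**Figure D4:**
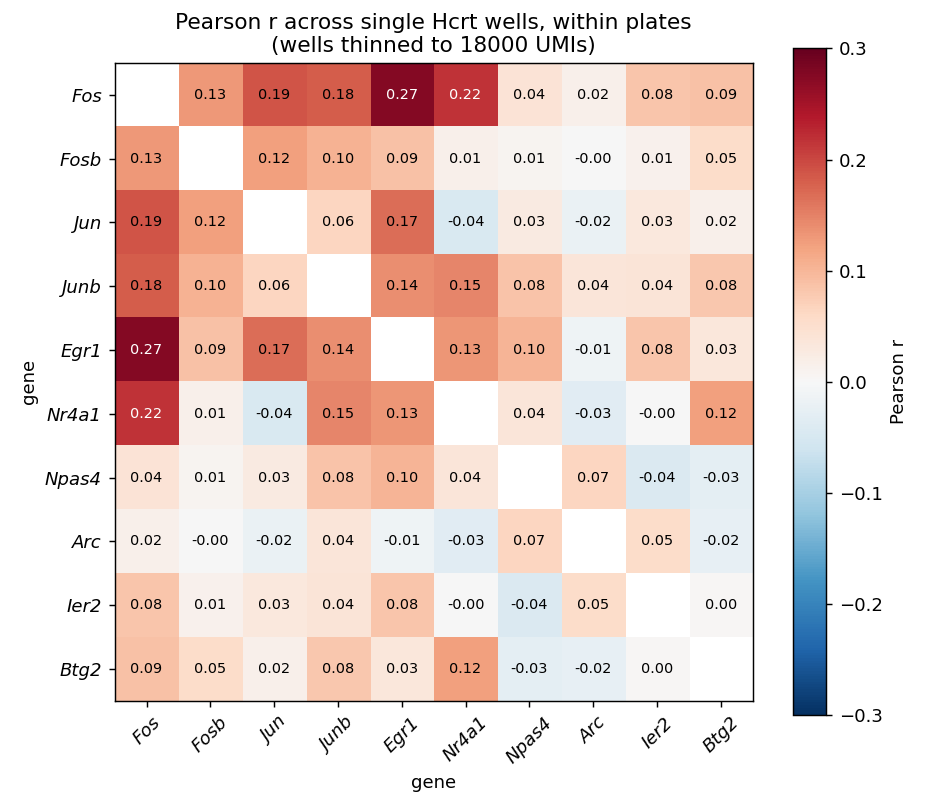
Pearson correlation between each pair of the 10 members over 1003 Hcrt wells thinned to 18000 UMIs, centred within plates (colour and printed value). The row of Fos holds the highest values, 0.27 with Egr1, 0.22 with Nr4a1, 0.19 with Jun and 0.18 with Junb, while the median of the 45 pairs is 0.054.

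When the Hcrt wells of each plate were divided into 4 groups by their Fos UMIs, other members were found more often in the groups with more Fos. From the lowest group (244 wells) to the highest (257 wells), the share of wells with an Egr1 UMI went from 23.4% to 54.5%, of Junb from 15.6% to 38.5%, of Nr4a1 from 8.61% to 27.2% and of Jun from 48.8% to 66.9%. Ier2 went from 10.7% to 18.3%, and Arc was at 0.41% and 0.778%. These are descriptions of the same wells as the correlations. The share of mitochondrial counts moved with the groups, from a median of 2.73% in the lowest to 2.29% in the highest, and over wells the summed level of the members had a correlation of -0.336 with it. The correlation of that sum was -0.122 with the share of ERCC spike-in counts, 0.113 with the share of Hcrt and 0.075 with the log2 of all UMIs. Most of the sum is Fos: the correlation with the share of Hcrt was 0.142 for Fos alone and 0.019 for the other 9 members, and that with the mitochondrial share was -0.319 and -0.226. The mean of the heat shock list was 197, 202, 198 and 198 thinned UMIs from the lowest to the highest, and its correlation with the members' sum was -0.009. The part of RNA quality in the shared variation of the members was not tested.

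**Figure D5:**
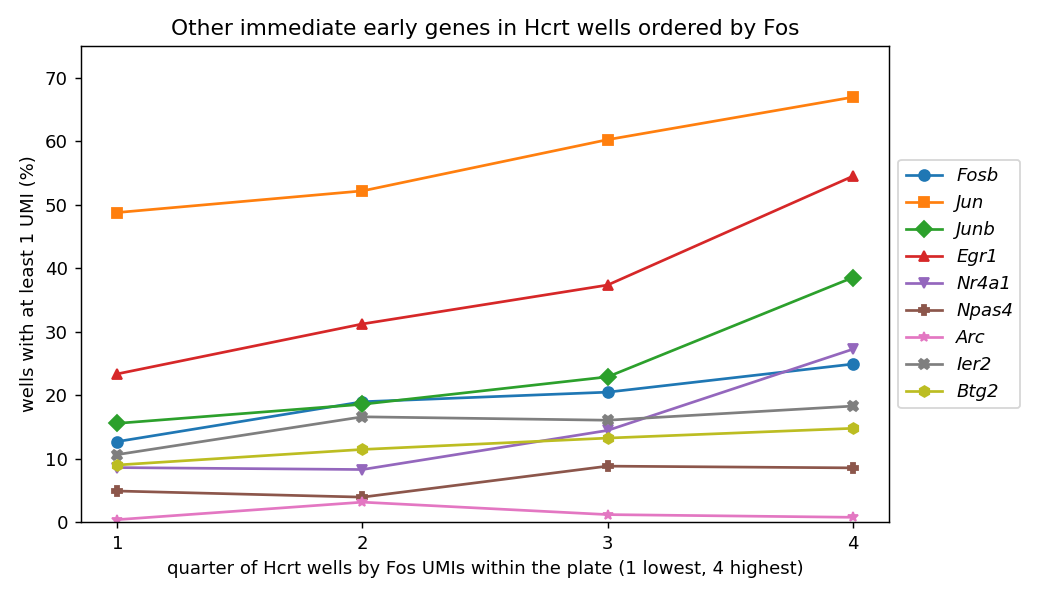
Percent of Hcrt wells with a UMI of each other member (18000 UMIs per well), in 4 groups of wells ordered by Fos within a plate. Egr1 goes from 23.4% to 54.5% and Nr4a1 from 8.61% to 27.2% from the lowest to the highest group, while Arc lies between 0.41% and 3.16%.

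Over the 8097 genes present in at least 10% of the thinned Hcrt wells, the gene most like the members' summed level was Pdyn, which encodes the opioid peptide dynorphin that Hcrt neurons release with hypocretin, at a correlation of 0.297. Next were the calcium-binding protein Calb1 at 0.252, Pcp4l1 at 0.243, Rtn1 at 0.232, Dkk3 at 0.224, Cpne6 at 0.221, the calcium-binding protein Calb2 at 0.215, Dusp1 at 0.214, Col25a1 at 0.207 and Tenm2 at 0.207. Dusp1 was the one other rapid immediate early gene among these 10. For the sum without Fos these values were lower, 0.200 for Pdyn, 0.137 for Calb1 and 0.089 for Calb2. The least alike of all was Bdnf, a growth factor usually counted among activity-regulated genes, at -0.236. The median correlation was 0.089 over 11 other rapid immediate early genes, 0.024 over 13 delayed genes, -0.018 over 17 upstream regulators and 0.008 over 15 heat shock genes, against -0.001 over all genes.

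Last, Hcrt neurons of each plate were divided at the plate's median share of Hcrt counts, and summed counts without Hcrt and Pmch were compared over the 19 plates. The high group had 15.3% Hcrt counts and a median of 55888 UMIs, the low group 11.6% and 49507. Fos was at 561 ± 174 CPM of the remaining counts in the high group and 409 ± 107.99 in the low group (SD, n = 19), a log2 difference of 0.48 ± 0.11 (SE; adjusted p = 0.0251), higher in 16 of 19 plates. It was the only one of the 8 members tested that was called, where 2.34% of 8702 genes were called, 1.69% higher and 0.655% lower. The call was lost without the filter on low counts (adjusted p = 0.0747), with scaling by totals (0.0547), without the plate block (0.0851) and without plate Q5_112, Q6_113 or Q7_106 (adjusted p up to 0.0563), while the difference stayed between 0.44 and 0.53 with any 1 plate left out. The delayed genes Scg2 at 0.43, Nptx2 at 0.43, Vgf at 0.35 and Pcsk1 at 0.32 were higher in the high group, as was 1 rapid gene, Fosl2, at 0.40 (adjusted p = 0.0489), a call that was lost in 15 of the 19 fits without 1 plate (adjusted p up to 0.128). Of the upstream regulators none passed, and of the heat shock genes 1 did, Hspa8, at 0.097, a call lost without plate Q5_108, Q6_105 or Q7_106 (adjusted p up to 0.0563).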

How the data were processed

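The authors' deposited table holds UMI counts per gene and well, as whole numbers, with a deposited sheet of well labels and of percent values, the share of counts on ERCC spike-ins and on mitochondrial genes. Per the submitters' processing notes, reads were handled with bcl2fastq 2.20, cutadapt 2.1.0 and STARsolo (STAR 2.7.5c) on GRCm38, with Seurat 2.3.4 and R 3.4.3. The annotation release, the strand setting and the collapsing of UMIs are not given in the sources used here, nor are the contents of the qRNA wells. Per the labels' protocols each cell received 135025 ± 38401 reads (mean ± SD). Kept wells per plate numbered 44 to 86, with 1835641 to 5067927 UMIs summed per plate. The labels' count of detected genes, used in the rule for kept wells, includes ERCC spike-ins.

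From these counts, sums per plate and class (at least 3 wells) were tested with edgeR 4.0.16 (quasi-likelihood, robust, TMM, filterByExpr, plate as block, all 4 classes in 1 fit; R 4.3.3) with Benjamini-Hochberg adjustment over all genes tested. The split by Hcrt share used plates with at least 6 Hcrt wells. Correlations, thinning and intervals used Python 3.11.15, pandas 2.3.3, numpy 2.4.6 and scipy 1.17.1. The scripts were tested on simulated counts of 7519 genes for Hcrt against GABA: 84.3% of 89 genes changed by 2-fold and 100% of 93 changed by 4-fold were called. The plate block was kept because classes of 1 plate share its library.

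All 10 members are named in each comparison. Of the other rapid, delayed, upstream and heat shock lists, up to 4 genes per comparison are named, those with the largest change past an adjusted p of 0.05 and at least 20 CPM in the higher class. The members and lists were chosen with earlier results of these data known. Doublets were not called, since cells were picked singly, and the 3 wells with both peptides were left out. Alternatives were other scalings (DESeq2 1.42.0 size factors, totals), filters, gates and tests, and each plate left out in turn. A limma 3.58.1 fit was added after seeing the data. Members are printed by symbol, with coordinates from the GENCODE M21 annotation of GRCm38.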

Additional observations from a re-analysis of the deposited data

Results flagged for a closer look

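In the class with no Gad, 1 plate of 10, Q8_115, stood apart from the others for 2 members. Ier2 was at 818 CPM there and Nr4a1 at 58.4 CPM, each farther from the next plate than Dixon's 95% limit allows. Groups of 10 plates were checked for all 10 members, and for normally distributed values chance gives about 1 such plate in 20 groups. These values are not of that kind, as Ier2 was at 0 in 5 of the 10 plates and Nr4a1 in 6. A lone high plate may then arise more often. The wells of this class outside the neuron gate hold most of its Ier2, as the levels with neurons only show.

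The 68 wells labelled qRNA, which no comparison uses, held members of the set at a median depth of 18251 UMIs. A UMI was present of Ier2 in 95.6%, Junb in 94.1%, Egr1 in 88.2%, Jun in 73.5%, Fos in 63.2%, Btg2 in 39.7%, Nr4a1 in 20.6% and Fosb in 10.3% of them. In the 64 ERCC and 40 empty wells together the shares were 5.77% for Fos, 2.88% for Jun, 1.92% for Junb and for Egr1, 0.962% for Fosb and 0 for Ier2, Nr4a1 and Btg2. What the qRNA wells contain was not tested.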

How the results depend on the processing

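Fos kept its direction and its call between the Hcrt class and each other class under all 31 alternatives run for each. The main tests have the plate as a replicate block, and without that pairing by plate the genes called between GABA and the class with no Gad went from 481 to 738, and those in the split by Hcrt share from 204 to 19. Egr1 between Pmch and GABA then lost its call, at -0.77, and Ier2 between Hcrt and no Gad gained one, at -2.50, while no other class call of a member changed. Without the filter on low counts the members called were 5 between Hcrt and GABA (3 with it), 8 between Hcrt and Pmch (5 with it) and 0 in the Hcrt-share split (1 with it), as they were with totals and without the block. With at least 5 wells per plate, or only the 2 classes compared, 5 were called between Hcrt and GABA and 0 between GABA and no Gad (3 in the main test). Between GABA and no Gad 1 was called with neurons only or a peptide limit of 5%, as between Pmch and GABA at 5% (3 in the main test). Between Pmch and no Gad 2 were called with at least 5 wells or neurons only, and 0 with only the 2 classes compared (4 in the main test).

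Genes called between Hcrt and no Gad were 2380 without the filter and 527 with only the 2 classes compared (1524 in the main test). Between GABA and no Gad they were 874 without the filter, 289 at a 5% peptide limit and 36 with only the 2 classes. Between Pmch and GABA they were 3698 with totals and 1480 with only the 2 classes (2452 in the main test), and between Pmch and no Gad 173 with only the 2 classes and 2424 in the limma fit added after seeing the data (1560 in the main test). The median over wells of the members' summed level was 533 CPM, against 640 from summed counts, and Fos was present in 84.2% of Hcrt wells at 10000 UMIs.

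The scaling moved the balance of calls. Higher and lower calls numbered 1335 and 1118 between Hcrt and GABA, but 944 and 1584 with DESeq2's size factors and 569 and 3006 with totals. Between Hcrt and no Gad they were 1048 and 476, but 499 and 898, and 360 and 1436. Between Pmch and no Gad they were 947 and 613, but 609 and 1122, and 422 and 1877. Between GABA and no Gad they were 325 and 156, but 197 and 244 with size factors, and between Pmch and GABA 1130 and 1322, but 957 and 1654, and 563 and 3135.

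Signs turned for members that were not called in the main test, and for Hsp90ab1 of the heat shock list, which was. Between Hcrt and no Gad, Fosb was -0.15 with size factors, -0.30 with totals, -0.026 without the block, -0.14 in DESeq2 and -0.019 in limma, Ier2 was 0.46 with at least 5 wells and 0.40 in limma, Btg2 was 0.17 at 5% and Egr1 0.12 with neurons only. Between Hcrt and Pmch, Npas4 was 0.13 with at least 5 wells. Between GABA and no Gad, Fosb was 0.50 at 5%. Between Pmch and GABA, Junb was -0.045 with size factors, -0.35 with totals, -0.040 in DESeq2, -0.11 in limma and -0.066 with only the 2 classes, Fosb was -0.29 with totals and Nr4a1 1.07 at 5%. Between Pmch and no Gad, Hsp90ab1 was -0.017 with totals (0.46 in the main test) and Fosb 0.67 at 5%. In the Hcrt-share split, Jun was -0.037 with the plate's middle wells left out. The cause was not tested.

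With each plate left out in turn, the members called ranged from 2 to 4 between Hcrt and GABA, 3 to 6 between Hcrt and Pmch, 2 to 3 between Hcrt and no Gad, 1 to 4 between GABA and no Gad, 2 to 3 between Pmch and GABA, 2 to 5 between Pmch and no Gad and 0 to 1 in the Hcrt-share split, where 134 to 260 genes were called. Fosb ranged from -0.11 to 0.51 between Hcrt and no Gad and from -0.11 to 0.26 between Pmch and GABA, where Junb ranged from -0.080 to 0.20. In the Hcrt-share split Ier2 ranged from -0.053 to 0.22, Nr4a1 from -0.0013 to 0.26 and Fosb from -0.00068 to 0.17. Depth limits Arc and Npas4, with 174 and 360 UMIs in all kept wells.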

Other observations

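Of the 40 wells labelled empty, 2 with at least 1000 UMIs (101729 UMIs together) held 155 UMIs of the 10 members, and the other 38 held 5. Each of the 384 well codes was used on 4 or 5 plates.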
